A study of Mus musculus with 48 samples.

Results

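The regions described here are the stretches of captured DNA that lay at the ends of protein-coding genes of the mouse. They were chosen by position: an autosomal region belonged if any base of it lay within 1 kb of either end of a RefSeq protein-coding gene on the mm10 genome build, and no measured value entered the choice. The rule found 7959 of 94535 autosomal regions, among 95882 regions in all. Strand was at hand for 16457 of 20665 autosomal protein-coding genes. With it, 1910 regions lay within 1 kb of a gene start, of which 529 were also within 1 kb of a 3′ end. The other 6049 comprised 4481 at 3′ ends and 1568 at an end of a gene whose strand was not at hand.

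DNA was taken from 4 intestinal sections, the duodenum, jejunum, ileum and colon, of 7 GermFree and 5 ConvR mice, which gave 48 libraries. GermFree mice carry no microbes, and the ConvR mice are described by the series as conventionalized. The labels used here give no strain, sex or age for either group. An MBD protein, which binds methylated CpG, captured sheared DNA of whole sections for sequencing, so a count reports methylated DNA of all cell types together: in such bulk samples more methylation per cell, more cells of a methylated type and more genomic copies of a locus cannot be told apart.

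Methylation of cytosine in the dinucleotide CpG is copied at each cell division. Gene starts that are dense in CpG, the CpG islands of widely expressed genes, are as a rule free of it, whereas gene bodies and gene ends are commonly methylated. Promoters of germline genes and 1 parental copy of imprinted genes are the textbook exceptions, with CpG-dense starts that are methylated in somatic tissue.

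Library totals ran between 1007560 and 3033782 counts with a median of 2122529, and the median region at a gene end held 11 to 32 counts per library. Levels are given as CPM, counts scaled to the total of a library or of the summed libraries of a mouse, and per kb of region where genes are compared. A region was called where edgeR's quasi-likelihood test gave a Benjamini-Hochberg adjusted p under 0.05 over all regions tested.

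The sequences of 7 gene starts that overlapped captured regions are printed here. Each is the RefSeq promoter window on GRCm38.p6, 250 bases before to 50 after the start, written 5′ to 3′ on the gene's strand with every CpG in capitals. The median window of all 20063 held 14 CpGs. A region covered each printed window whole, except for E030030I06Rik (270 bases) and Pou5f1 (203 bases). Regions reach beyond the windows: that over the Klra4 window, which has no CpG, spans 11198 bp. The first 4 are at regions higher in GermFree mice: E030030I06Rik (chr10:22149221-22149520, minus strand, 21 CpGs), the Ly49 receptor genes Klra9 (chr6:130193063-130193362, minus, 2 CpGs) and Klra4 (chr6:130067222-130067521, minus, 0 CpGs), and Pxmp4 (chr2:154603624-154603923, minus, 9 CpGs). The next pair are germline genes with captured starts, Hsf2bp (chr17:32034459-32034758, minus, 20 CpGs) and Pou5f1 (chr17:35505782-35506081, plus, 11 CpGs). The last is the imprinted gene Nap1l5 (chr6:58907077-58907376, minus, 17 CpGs).
E030030I06Rik: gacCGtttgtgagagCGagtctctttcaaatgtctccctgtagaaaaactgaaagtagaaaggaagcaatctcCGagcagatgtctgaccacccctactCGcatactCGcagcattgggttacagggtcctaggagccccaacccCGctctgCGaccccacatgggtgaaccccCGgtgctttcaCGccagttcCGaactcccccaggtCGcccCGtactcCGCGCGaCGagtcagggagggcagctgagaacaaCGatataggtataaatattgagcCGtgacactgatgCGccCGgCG
Klra9: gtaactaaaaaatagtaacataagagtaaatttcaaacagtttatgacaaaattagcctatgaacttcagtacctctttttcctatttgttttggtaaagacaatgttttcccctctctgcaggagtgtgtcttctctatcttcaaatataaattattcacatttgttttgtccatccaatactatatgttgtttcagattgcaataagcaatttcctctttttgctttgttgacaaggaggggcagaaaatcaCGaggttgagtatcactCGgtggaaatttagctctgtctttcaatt
Klra4: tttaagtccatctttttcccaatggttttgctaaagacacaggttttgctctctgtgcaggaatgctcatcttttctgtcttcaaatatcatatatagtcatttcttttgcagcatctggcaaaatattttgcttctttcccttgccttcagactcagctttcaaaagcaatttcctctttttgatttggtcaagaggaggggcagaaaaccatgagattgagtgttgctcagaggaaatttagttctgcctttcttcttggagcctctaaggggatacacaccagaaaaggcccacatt
Pxmp4: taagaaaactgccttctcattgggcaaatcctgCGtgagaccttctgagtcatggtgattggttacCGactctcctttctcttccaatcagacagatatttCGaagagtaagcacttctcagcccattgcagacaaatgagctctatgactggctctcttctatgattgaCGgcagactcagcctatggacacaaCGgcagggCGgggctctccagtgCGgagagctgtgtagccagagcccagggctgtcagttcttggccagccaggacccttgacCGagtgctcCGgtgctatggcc
Hsf2bp: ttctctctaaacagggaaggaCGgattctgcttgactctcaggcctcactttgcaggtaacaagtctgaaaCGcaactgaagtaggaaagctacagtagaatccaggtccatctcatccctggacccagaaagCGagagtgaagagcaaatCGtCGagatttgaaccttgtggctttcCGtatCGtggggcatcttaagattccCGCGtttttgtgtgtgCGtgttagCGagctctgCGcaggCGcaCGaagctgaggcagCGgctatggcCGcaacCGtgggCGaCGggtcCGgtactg
Pou5f1: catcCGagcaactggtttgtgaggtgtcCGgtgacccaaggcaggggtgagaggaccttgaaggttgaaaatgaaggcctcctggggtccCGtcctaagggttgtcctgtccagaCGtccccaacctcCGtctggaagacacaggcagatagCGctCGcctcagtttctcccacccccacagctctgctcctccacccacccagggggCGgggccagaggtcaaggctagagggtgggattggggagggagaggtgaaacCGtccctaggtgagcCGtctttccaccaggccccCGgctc
Nap1l5: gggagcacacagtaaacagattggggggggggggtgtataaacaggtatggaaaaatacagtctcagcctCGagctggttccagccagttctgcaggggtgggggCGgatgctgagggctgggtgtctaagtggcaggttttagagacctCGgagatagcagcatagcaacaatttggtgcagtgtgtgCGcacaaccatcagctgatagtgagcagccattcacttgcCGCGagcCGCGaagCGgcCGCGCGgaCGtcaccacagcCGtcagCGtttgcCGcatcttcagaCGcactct

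Captured DNA was sparse at gene starts and common at gene 3′ ends. Of the 16457 genes with a known strand, 1984 (12.1%) had a region within 1 kb of the start and 5508 (33.5%) within 1 kb of the 3′ end. Base by base, a region covered 8.50% of genes 5 kb before the start, 3.93% at 250 bp before it, 4.68% at the start itself and 12% at 5 kb beyond it. At the other end the cover was 17.2% at 5 kb before the 3′ end, 23.1% at 1.5 kb before it, 15.8% at the end and 10.4% at 2 kb past it. The gap at starts and the crest just inside the 3′ end are the main features of the profile. A start and a 3′ end were often covered in the same gene: 51.0% of genes with a region at the start also had a region at the 3′ end, against 31.1% of genes without a start region, and 1011 genes had both. A single region over a short gene counts at both ends here, which favours such pairs. Of the start regions, 529 were also within 1 kb of a 3′ end, of the same or another gene.

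**Figure D1:**
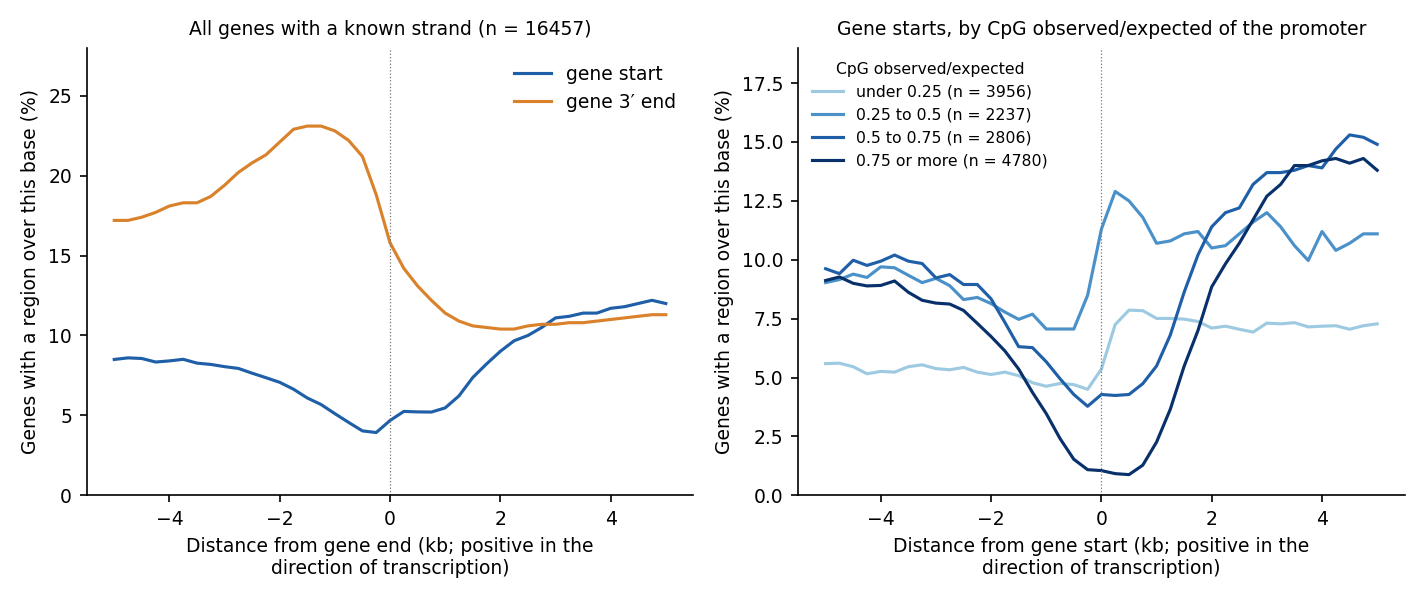
Percentage of genes with a region over each base (vertical axis) by distance in kb from the gene start or 3′ end (horizontal axis, positive in the direction of transcription). Left, cover at starts dips to 3.93% at 250 bp before the start and cover before 3′ ends peaks at 23.1%. Right, gene starts split by the CpG content of the promoter window, where the darkest line, the most CpG-rich class, drops to 1.05% at the start.

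The gap at starts followed the CpG content of the promoter. The observed count of CpG was divided by the count that the window's C and G content would give by chance. Where this ratio was 0.75 or more, 52 of 6956 windows (0.748%) overlapped a region. The figure was 182 of 4188 (4.35%) for ratios of 0.5 to 0.75, 551 of 3600 (15.3%) for 0.25 to 0.5, and 376 of 5319 (7.07%) under 0.25. Cover was thus highest at starts of intermediate CpG content and lower at those with the fewest CpGs. Away from the start the order of the classes changed: at 4 kb into the gene a region covered 14.2% of genes in the richest class, 13.9%, 11.2% and 7.18% in the poorest. The few CpG-rich windows with a region, looked up after the values were seen, included those of Hsf2bp, Smarca5 (a chromatin remodeller, 5.57 ± 2.36 CPM, SD over 48 libraries), Rpp25l (336 ± 39.7 CPM over 32263 bp) and Dmrtc2 (17.0 ± 3.71 CPM).

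Germline genes stood at the top of the gene lists for regions at starts. Of 31 such genes with a known strand, 17 (54.8%) had one, against 12.1% of all genes, and 6 (19.4%) had one at the 3′ end, against 33.5%. The start of Brdt, a testis bromodomain gene, gave 3.91 ± 1.53 CPM (SD, n = 48 libraries) or 8.55 CPM per kb. Asz1 and Piwil1, both of the piRNA pathway, gave 8.51 and 7.30 CPM per kb. The start of Pou5f1, the pluripotency factor gene, gave 6.14 ± 2.16 CPM, with a lowest library of 2.68, a median of 5.74 and a highest of 10.8. Hsf2bp, a meiotic recombination gene, gave 6.50 ± 2.07 CPM, and Sycp3, of the synaptonemal complex, 6.07 ± 1.66 CPM. Dazl (10.7 ± 2.87 CPM, 5.17 per kb) and Dnmt3l (6.42 ± 1.96 CPM, 5.22 per kb) also had regions at their starts. These levels lie on either side of the median of 5.93 CPM per kb over all start regions.

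Imprinted genes had regions at 10 of 34 starts (29.4%) and 9 of 34 3′ ends (26.5%). Igf2r, the receptor that clears the growth factor IGF2, gave 3.84 ± 1.37 CPM at its start (8.06 per kb), Mcts2 4.66 ± 1.28 (8.33 per kb) and Mkrn3 6.51 ± 1.88 (6.11 per kb). The start shared by Peg3 and Usp29 gave 9.03 ± 2.79 CPM, Plagl1 7.71 ± 1.88, Gnas 10.4 ± 2.21, Nnat 13.6 ± 3.62 and Nap1l5 6.56 ± 2.0 CPM (SD, n = 48 libraries each). The highest of these levels per kb belonged to short regions, those of Mcts2 (559 bp) and Igf2r (477 bp).

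At the other extreme, 0 of 22 Hox genes and 0 of 23 gut epithelial transcription factor genes had a region at the start, and among 22 housekeeping genes Vps29 alone did (4.55%; 8.02 ± 2.53 CPM). Their 3′ ends were not bare: 4 Hox genes (18.2%), 5 gut transcription factor genes (21.7%) and 7 housekeeping genes (31.8%) had a region there. Gpi1, a glycolytic enzyme gene, gave 8.15 ± 1.99 CPM at its 3′ end, Eef2, an elongation factor gene, 26.8 ± 4.68 CPM, and Polr2a, the gene of the largest RNA polymerase II subunit, 36.3 ± 4.83 CPM. Epithelial structure genes had the highest share of 3′ ends, 11 of 17 (64.7%), with 2 starts (11.8%). Natural killer genes had 13 of 35 starts (37.1%) and lymphocyte genes 6 of 20 (30.0%). Olfactory and vomeronasal receptor genes had 5.82% of 1271 starts and zinc finger protein genes 11.6% of 380, and 52 of 57 clustered protocadherin genes, none with a strand at hand, had a region at an end. Of the remaining lists, regions at starts were found for 13.9% of small intestinal absorption, 6.67% of colon epithelial, 8.33% of microbe-responsive, 13.3% of myeloid, 16.7% of smooth muscle, 18.2% of stromal and endothelial, and 9.09% of enteric neuron and glia genes.

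**Figure D2:**
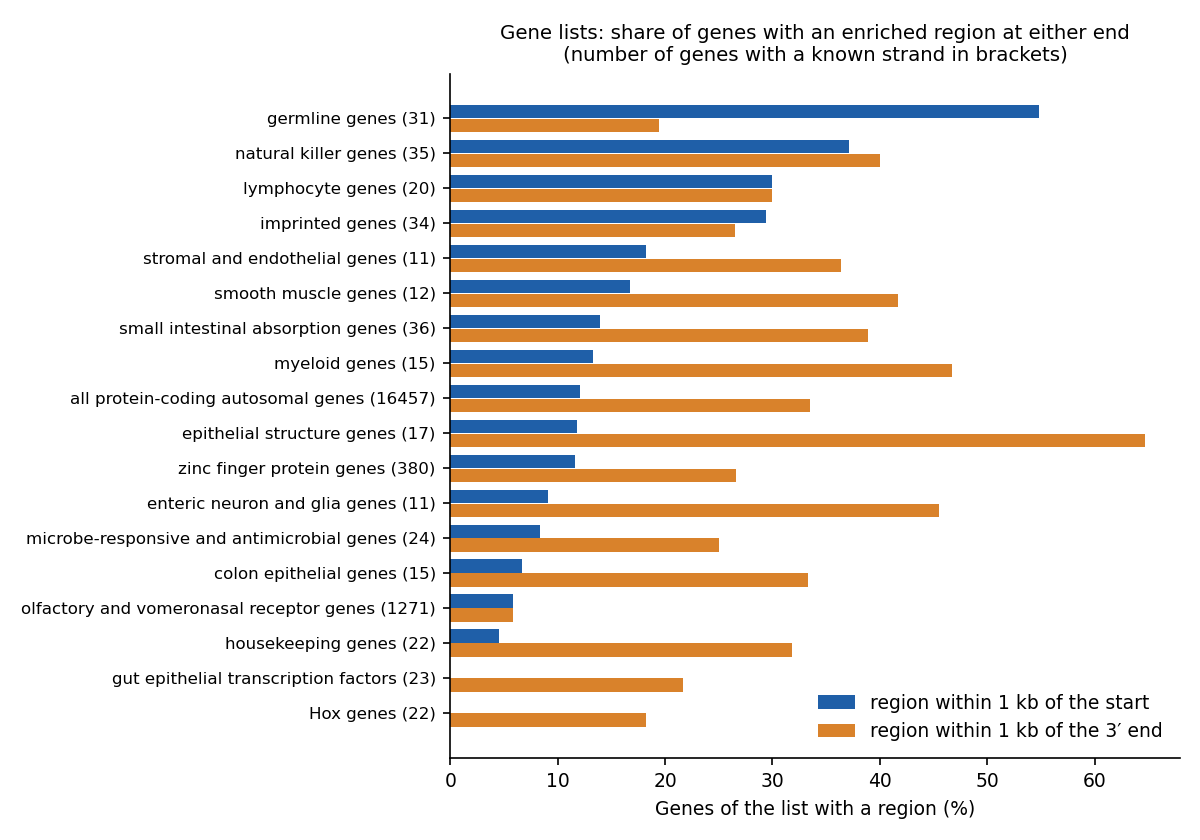
Percentage of the genes of each list (horizontal axis) with a region within 1 kb of the start (blue) and of the 3′ end (orange). Germline genes have the longest blue bar (54.8%), Hox and gut transcription factor genes have none, and the longest orange bar is that of the epithelial structure genes (64.7%).

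The regions at gene ends were wider in the median than others, and the rule itself favours wide regions, which reach a window more often. The median was 1571 bp at starts and 2033 bp at other ends, against 1279 bp in gene bodies and 986 bp outside protein-coding genes, and 1141 regions at gene ends were 5 kb or wider. They held 8.84 CPM (median) at starts and 10.9 CPM at other ends, against 7.57 CPM in gene bodies and 6.43 CPM outside genes. Per kb the order turned round, with 5.93, 5.45, 6.04 and 6.69 CPM per kb in the same 4 classes. The 3663 regions that covered a gene end had a median width of 2718 bp, and the 2220 that lay 500 bp or less away from one had 1381.5 bp. At the limit of the rule, the 411 regions in the last 100 bp inside it had a median width of 1266 bp and 7.49 CPM, and the 407 in the first 100 bp outside it had 1484 bp and 8.33 CPM.

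The first comparison asked where GermFree mice differed from ConvR mice, with the 4 sections of each mouse summed. Gene starts gave the larger share of calls. Of 7959 regions at gene ends, 43 were called (0.540%), 42 higher and 1 lower in GermFree mice. Of the autosomal regions tested, which all regions at gene ends are, 0.277% were called and 0.234% were called higher, so the share at gene ends was above this background. With the sex chromosomes the background was 0.475%, with 0.431% higher. Of the 43 calls, 13 lay at or near the Klra genes and 6 at Raet1d, Raet1e and H60b. Wide regions were also called more often. At 5 kb or more the share was 6.44% at starts, 0.852% at other ends and 2.06% away from gene ends. The part of these loci and of width in the share at gene ends was not tested. At starts 23 of 1910 were called (1.20%), all 23 higher, against 20 of 6049 at other ends (0.331%), 0.107% in gene bodies and 0.457% outside genes. When a region counted only if its midpoint lay in the window, the share at gene ends was 0.222%, below the autosomal background, and 5 of 961 at starts (0.520%) and 4 of 3102 at other ends (0.129%) were called. Every region in the authors' list carries a GermFree label in its name, and the sources used here do not say whether ConvR libraries entered the choice of regions, so regions captured mainly in ConvR mice may be under-represented. The median log2 difference was -0.02 over regions at starts and -0.02 at other ends.

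The calls at gene ends fell into 19 runs, in which neighbouring calls lay within 500 kb of each other, and 7 runs of more than 1 call held 31 of the 43. The largest held 13 regions on chromosome 6 from 130042204 to 130941267. It took in the Klra genes, which encode Ly49 receptors of natural killer cells, and predicted genes beyond Klra1, LOC115490339 among them. A run of 6 lay at Raet1d, Raet1e and H60b, genes of ligands for the receptor NKG2D. In the list of natural killer genes, 16 of 30 regions were called, at 10 genes and all higher, with a median log2 difference of 0.55, against -0.001 over all regions tested. None of the regions of the other 17 lists was called by edgeR, where 0.54% of all regions at gene ends were, so an empty short list says little. Klra, Raet1 and H60 genes have near-identical copies and how the authors counted reads that match several is not given, so the split among copies is uncertain. These loci were known from earlier results on these libraries.

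The largest rise was at an end of H60b, which gave 144 ± 39.9 CPM over the 7 GermFree mice and 37.1 ± 7.13 CPM over the 5 ConvR mice (SD; log2 1.95). At the Raet1d start (chromosome 10, 22355369 to 22361158) GermFree mice gave 34.8 CPM at the lowest, a median of 48.6 and 64.3 at the highest, against 20.6, 21.4, 17.9, 21.4 and 15.6 CPM in the 5 ConvR mice. All 7 GermFree mice lay above all ConvR mice, with a log2 difference of 1.37 and an edgeR adjusted p of 1.64e-12 (SE 0.105). A region of 8975 bp within 1 kb of the starts of both E030030I06Rik and Raet1e averaged 81.4 ± 17.8 CPM over the 7 GermFree mice and 32.0 ± 5.20 CPM over the 5 ConvR mice (SD; log2 1.35). The CpG-rich window printed above is that of E030030I06Rik, of which the region covered 270 bases. At Klra9 the window held 2 CpGs within a region of 23846 bp that gave 359 ± 43.8 CPM in GermFree and 171 ± 27.4 CPM in ConvR mice (log2 1.07, SE 0.0972). The start and the 3′ end of Klra4 moved alike, by 1.0 and 1.11 on the log2 scale. Called starts thus included windows rich in CpG and windows nearly without it.

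Outside the Klra and Raet1 runs there were 12 single calls and 5 runs of 2 to 4, and those named here were chosen after their values were seen. At the start of Pxmp4, a peroxisomal membrane protein gene (chromosome 2, 154602466 to 154606281), GermFree mice gave 26.0 CPM at the lowest, a median of 32.3 and 36.6 at the highest, against 27, 17.0, 15.0, 19.6 and 15.2 CPM in ConvR mice. ConvR mouse 1 lay among the GermFree values and 6 of the 7 GermFree mice exceeded every ConvR mouse (log2 0.82, SE 0.0906; edgeR adjusted p = 1.99e-08). Called in each section, Pxmp4 differed by 1.04 in the duodenum, 0.50 in the jejunum, 0.80 in the ileum and 0.96 in the colon on the log2 scale. The start of Cr2, a complement receptor gene of B cells, gave 88.3 ± 20.4 CPM in GermFree and 52.0 ± 9.26 CPM in ConvR mice (log2 0.76), and the 3′ end of Ehmt1, a histone methyltransferase gene, 53.0 ± 4.51 CPM in GermFree and 28.1 ± 10.4 CPM in ConvR mice (log2 0.88). Slc37a3, a sugar phosphate transporter gene, gave 32.6 ± 3.57 CPM at its 3′ end in GermFree mice, against 21.0, 22.1, 20.2, 22.7 and 21.3 CPM in ConvR mice (log2 0.60, SE 0.0726). No GermFree mouse was as low as any ConvR mouse there.

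At the 3′ end of C1ra, which encodes a protease of the complement cascade, GermFree mice gave 58.4 ± 3.35 CPM and ConvR mice 41.4 ± 3.17 CPM (log2 0.49). It headed a run of 4 with C1s1, C1rb and C1s2, which rose by 0.44 to 0.48. An end of St6galnac1, a sialyltransferase gene, gave 58.9 ± 3.97 CPM in GermFree and 39.7 ± 4.01 CPM in ConvR mice (log2 0.56), and the start of the growth factor gene Pdgfa 5.69 ± 0.618 CPM in GermFree and 3.80 ± 0.394 CPM in ConvR mice (log2 0.57, edgeR adjusted p = 0.0285). The lone fall was at Atp2a1, the calcium pump gene of fast skeletal muscle, whose 3′ end gave 11.2 CPM at the lowest, a median of 13.2 and 14.5 at the highest in GermFree mice, against 19.7, 16.3, 17.2, 15.7 and 15.4 CPM in ConvR mice. Every GermFree mouse lay below every ConvR mouse (log2 -0.35, SE 0.0812; edgeR adjusted p = 0.0226). The Atp2a1 call was lost in 7 of 20 alternatives: with DESeq2, with a block by the code in the sample titles (log2 -0.32), without ConvR mouse 1, ConvR mouse 3 or both, and without GermFree mouse 1 or 5.

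**Figure D3:**
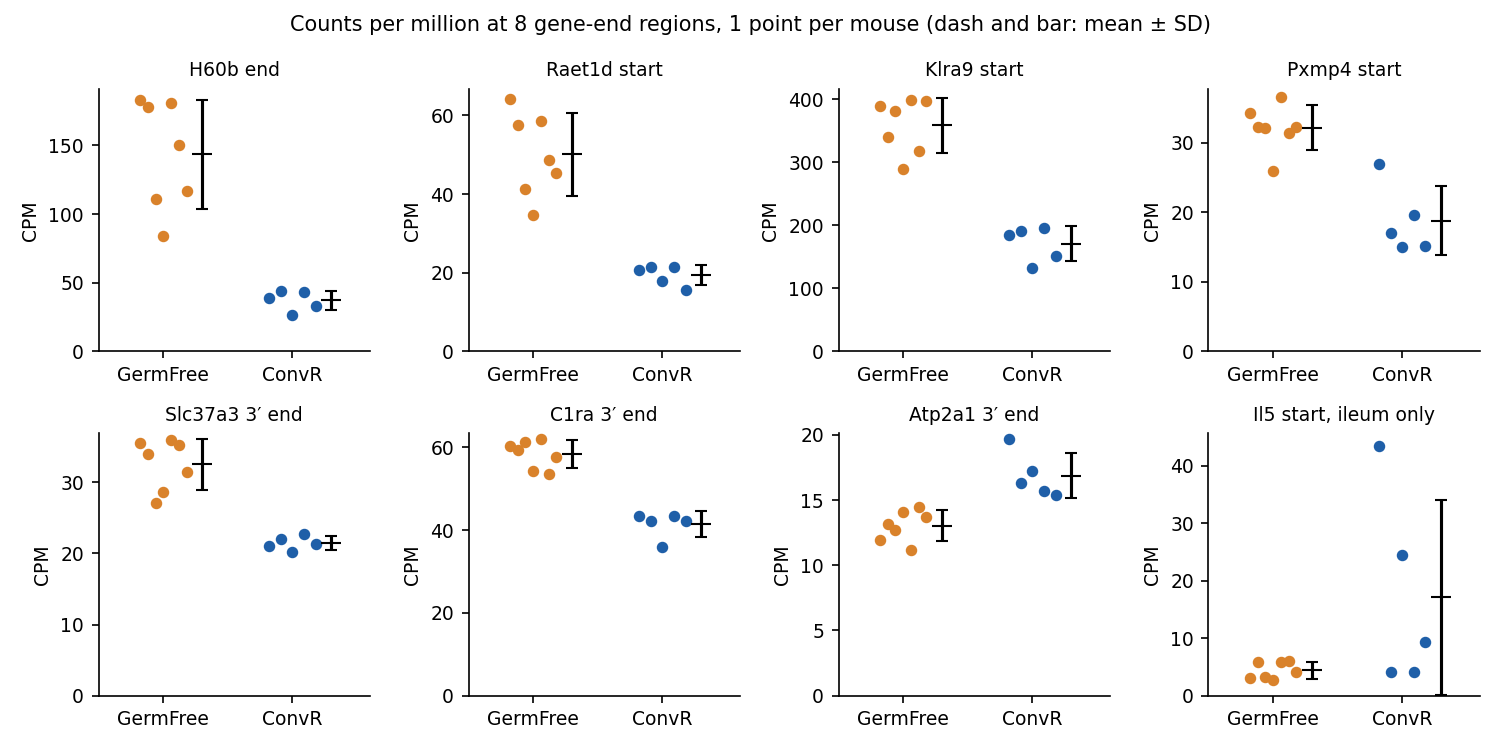
CPM (vertical axes, from 0) at 8 regions, with 1 point per mouse, GermFree left and ConvR right, and the mean ± SD beside each group. The first 7 panels sum the 4 sections and the last is the Il5 start in the ileum alone. The 7 GermFree mice lie above all ConvR mice at H60b, Raet1d, Klra9, Slc37a3 and C1ra and below them at Atp2a1, and at Il5 ConvR mice 1 and 3 reach 43.5 and 24.4 CPM.

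Section by section, the regions that rose were largely shared, and the falls were few. In the duodenum 32 of 7042 regions that passed the filter on low counts were called (0.454%; background 0.272% of autosomal regions), 31 of them higher (background 0.232%). In the jejunum 23 of 7313 were called (0.315%; background 0.164%), 21 higher (0.124%). The ileum gave 28 of 7519 (0.372%; background 0.195%), 25 higher (0.145%), and 18 calls without ConvR mouse 3. The colon gave 42 of 6886 (0.610%; background 0.307%), 40 higher (0.278%). The shares over all gene ends were thus above the autosomal background in each section, and below it when regions were placed by midpoint, at 0.0897%, 0.0844%, 0.107% and 0.156%. Much of each count came from the same loci. In the same order, 11, 9, 10 and 12 calls lay at and near the Klra genes, and 6 in each section at Raet1d, Raet1e and H60b. The part of these loci in the shares was not tested. Starts gave 0.921%, 0.524%, 0.784% and 1.26% in the order above, and other ends 0.314%, 0.25%, 0.244% and 0.416%.

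Of 49 regions called in any section, 18 were called in all 4, each time higher, among them Cr2, Cacna1b, Ehmt1 and Pxmp4. Another 8 were called in 3 sections, 6 in 2 and 17 in 1. The called share was lower by 1.5 times or more with DESeq2, at 0.276% in the duodenum, 0.163% in the jejunum, 0.214% in the ileum and 0.327% in the colon. DESeq2 was run without the filter on low counts, so its shares are over more regions than those of edgeR. The test of whether the difference varies among the sections called 0 regions at gene ends and 0 in all (0%) with edgeR, and 0 at gene ends with DESeq2, with 420 of 7959 at an unadjusted p under 0.05. With the mouse as a block it called 1, Il5 (edgeR adjusted p = 0.0241).

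Falls in single sections were called 8 times, at 7 regions. At the start of Il5, the cytokine gene of eosinophils (chromosome 11, 53721594 to 53722378), GermFree ileum gave 2.66 CPM at the lowest, a median of 4.14 and 6.0 at the highest, against 43.5, 4.04, 24.4, 4.17 and 9.41 CPM in ConvR ileum. ConvR mice 2 and 4 lay within the GermFree range (log2 -1.61, SE 0.331; edgeR adjusted p = 0.00266), and the call was lost with DESeq2 and without ConvR mouse 1, ConvR mouse 3 or both (-0.44). At an end of Rps29, a ribosomal protein gene, GermFree ileum gave 10.5 ± 6.72 CPM, against 87.0, 9.43, 42.5, 6.67 and 25.7 CPM in ConvR ileum (log2 -1.49). In the jejunum the same region gave 12.1 ± 6.02 CPM in GermFree mice, against 33.7, 10.5, 50.3, 9.85 and 12.2 CPM in ConvR mice (log2 -0.88). There too the ConvR mean was carried by mice 1 and 3, without which the log2 difference in the jejunum was 0.07. DESeq2 called neither, and the calls were also lost without ConvR mouse 1 alone.

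The other falls were smaller. An end of Gins4, a replication factor gene, gave 26.7 ± 3.74 CPM in GermFree duodenum and 36.0, 39.0, 47.7, 40.2 and 35.0 CPM in ConvR duodenum, with no overlap (log2 -0.55, edgeR adjusted p = 0.00458), a call lost under DESeq2, with the block by title code (-0.51) and without ConvR mice 1 and 3 (-0.50). Zfp936 fell in the jejunum (-0.49), Cep164, a centriole gene, in the ileum (-0.75), and Zbtb39 (-0.48) and Evpl, an envelope protein gene of stratified epithelia (-0.58), in the colon. Each of these 4 lost its call in 7 or more of 20 or 21 alternatives.

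The second comparison set the colon against the mean of the 3 small intestinal sections, which share each mouse. Here gene starts again held the larger share of calls. Of 7959 regions at gene ends 284 were called (3.57%; background 2.03% of autosomal regions), 191 higher in colon (2.40%; background 1.43%) and 93 lower (1.17%; background 0.608%). At starts 108 of 1910 were called (5.65%), 88 higher and 20 lower, against 176 of 6049 at other ends (2.91%), 103 higher and 73 lower. In gene bodies the share was 1.37% and outside genes 2.62%. With the midpoint in the window the shares were 2.71% at 961 starts and 1.87% at 3102 other ends. The main fit had no term for the mouse, and with the mouse as a block 429 were called (5.39%). The count depended on single mice: it was 183 without ConvR mouse 1, 488 without ConvR mouse 3, 142 without ConvR mouse 4, 90 without ConvR mouse 5 and 136 without GermFree mouse 4.

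The largest runs of calls lay at clusters of multi-copy genes. Whether calls cluster more than regions at gene ends do in general was not tested. The 284 calls fell into 173 runs, and 44 runs of more than 1 call held 155. Runs of 11 lay at the Pramel genes on chromosome 4 and at Speer4 and related predicted genes on chromosome 5. Runs of 10 lay at Sp100, Sp110 and Sp140 on chromosome 1, at Zfp978 to Zfp988 on chromosome 4, and at and near the Klra genes. All of them were higher in colon. Of the zinc finger list 21 of 185 regions rose and 3 fell, and of the olfactory and vomeronasal receptor list 9 of 106 rose. The 3′ end of Zfp988 gave 224 ± 36.4 CPM in colon and 171 ± 21.4 CPM in small intestine (SD, n = 12; higher in 11 of 12 mice; log2 0.39, SE 0.0700; edgeR adjusted p = 0.000699). Vmn1r77, a vomeronasal receptor gene covered end to end, gave 31.2 ± 6.63 CPM in colon and 23.0 ± 3.15 CPM in small intestine (higher in 9 of 12; log2 0.42). In these families too the split among copies is uncertain.

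The largest rises on the log2 scale were at shorter regions. The region at the starts of BC049715 and Wbp11, a splicing factor gene, gave 3.78 CPM at the lowest, a median of 5.99 and 8.38 at the highest in colon, and 2.07, 3.85 and 6.51 CPM in small intestine. The ranges overlapped, with colon higher in 10 of 12 mice (log2 0.66, SE 0.173, edgeR adjusted p = 0.0186). The call was lost without ConvR mouse 1, GermFree mouse 4, or ConvR mice 1 and 3 together. An end of Defa26, a Paneth cell defensin gene of a multi-copy family, gave 6.90 ± 1.62 CPM in colon and 4.13 ± 1.25 CPM in small intestine (log2 0.64), and the start of Cts3, a placental cathepsin gene, 10.4 ± 2.81 CPM in colon and 6.97 ± 1.31 CPM in small intestine, with colon higher in 12 of 12 mice (log2 0.59). Lgals4, a galectin gene of the gut epithelium, rose at its 3′ end (11.3 ± 2.76 CPM in colon and 7.99 ± 0.956 CPM in small intestine, log2 0.48), as did Fcgr1, a myeloid Fc receptor gene (log2 0.46). Each was the lone call in its list, of 16 and 11 regions, and was lost without ConvR mice 1 and 3. The Defa26 call was lost without ConvR mouse 4 or 5.

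In colon 93 regions fell. The start of Kcnmb3, a potassium channel subunit gene, gave 0.491 CPM at the lowest, a median of 2.65 and 3.45 at the highest in colon, against 2.95, 4.56 and 7.04 CPM in small intestine. Colon was lower in all 12 mice (log2 -0.85, SE 0.203; edgeR adjusted p = 0.00756), a call lost without GermFree mouse 4 (log2 -0.71). Rnf148, a ubiquitin ligase gene lying within a single region, gave 4.08 ± 1.24 CPM in colon and 6.43 ± 1.03 CPM in small intestine, lower in all 12 mice (log2 -0.58). Its call was lost without ConvR mouse 4 or 5, GermFree mouse 6 or 7, or ConvR mice 1 and 3 together. The start of Mb, the myoglobin gene, gave 4.58 ± 1.57 CPM in colon and 7.05 ± 0.971 CPM in small intestine (log2 -0.57) and belonged to a run of 5 falls on chromosome 15 with Top1mt, Nrbp2, Bop1 and Zfp7. The Mb call was lost without ConvR mouse 4 or 5. Another run of 5 falls, at Polrmt, Plppr3, Grin3b, Fam174c and Reep6, lay on chromosome 10.

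Among the clustered protocadherins, adhesion genes of neurons, 3 of 46 regions fell and 0 rose, with a median log2 difference of -0.17. Pcdha7 gave 7.38 ± 3.43 CPM in colon and 10.8 ± 1.54 CPM in small intestine (log2 -0.51), and Pcdha10 and Pcdhga12 fell by 0.45 and 0.37 on the log2 scale. Leaving out single mice ended the Pcdha7 and Pcdha10 calls in 5 cases each, and Pcdhga12 lost its call in 10 of 19 alternatives, DESeq2 among them. The 3′ end of Magel2, an imprinted gene of the Prader-Willi interval, gave 15.8 ± 3.78 CPM in colon and 20.1 ± 1.74 CPM in small intestine, lower in 11 of 12 mice (log2 -0.31, edgeR adjusted p = 0.0269). It was the lone call among 18 regions of imprinted genes and was lost with DESeq2 and without ConvR mouse 1, 4 or 5 or GermFree mouse 2 or 4. Germline (26 regions), housekeeping (11), Hox (4), gut transcription factor (7), small intestinal absorption (23), colon epithelial (9), microbe-responsive (8), lymphocyte (24), smooth muscle (8), stromal and endothelial (10), and enteric neuron and glia (9) genes had 0 calls with edgeR in this comparison. Over all regions at gene ends 3.57% were called, so 0 calls in lists this small says little about them.

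Calls went with the width of the region, and starts stood above other classes at a given width. Among regions of 5 kb or more, 13 of 202 at starts were called between GermFree and ConvR mice (6.44%), against 0.852% at other ends and 2.06% away from gene ends. In colon against small intestine the shares were 29.2% (59 of 202), 7.77% and 10.3%. Under 1 kb they were 0.448%, 0.0661% and 0.112% in the first comparison and 1.19%, 0.859% and 0.849% in the second. Wide regions also hold more counts, many of the wide starts lie in the gene clusters above, and the part of either in these shares was not tested. By CpG content, 46 of 365 regions over the poorest windows (12.6%) rose in colon and 0 fell, while 14 rose and 6 fell among 524 with ratios of 0.25 to 0.5. At ratios of 0.5 to 0.75, 7 of 174 rose and 1 fell, and at 0.75 or more 2 of 43 rose and 0 fell. Over all 1073 regions at such windows 66 rose and 7 fell (6.8% called). Of all autosomal regions tested 1.43% rose and 0.608% fell.

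**Figure D4:**
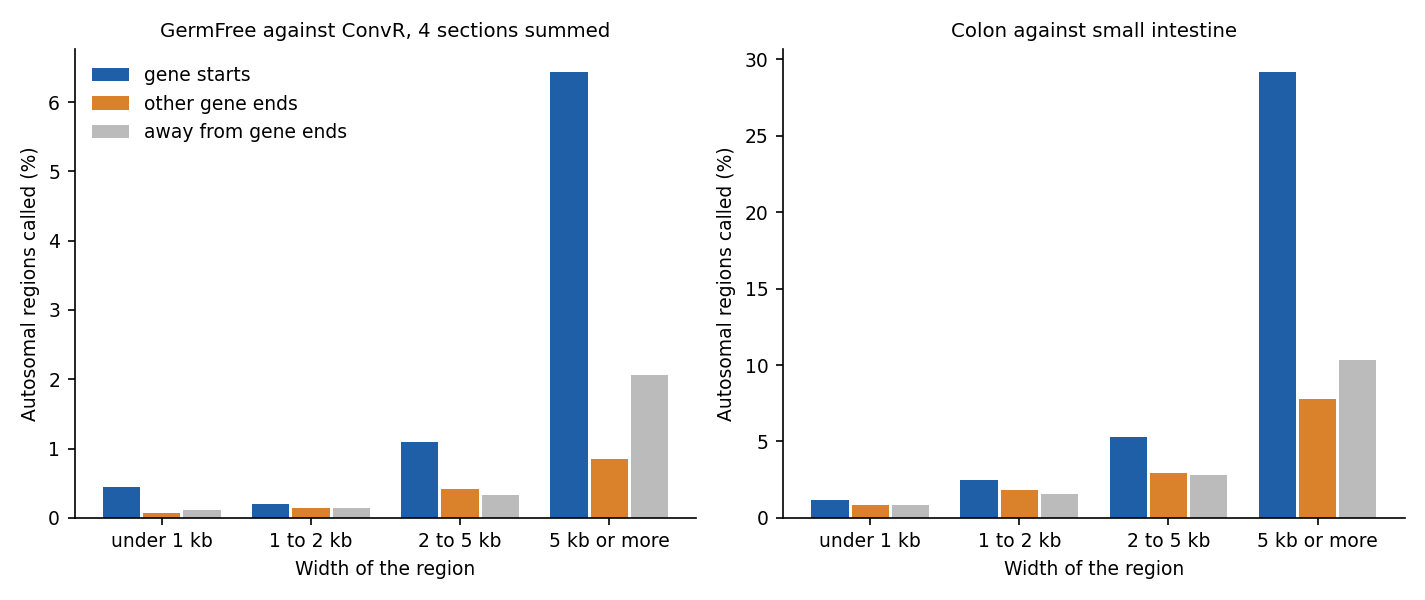
Percentage of autosomal regions called (vertical axes, from 0, on different scales) by width of the region, for GermFree against ConvR mice with sections summed (left) and for colon against small intestine (right). In the widest class 6.44% and 29.2% of regions at gene starts were called, above the other gene ends (orange) and regions away from gene ends (grey).

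Within the small intestine little was called. Ileum against duodenum gave 1 region at a gene end (0.0126%; background 0.00212%), the 3′ end of Hoxd3, a homeobox gene of axial patterning (chromosome 2, 74747475 to 74748165). It gave 4.13 CPM at the lowest, a median of 6.56 and 9.37 at the highest in ileum, and 1.08, 2.91 and 5.89 CPM in duodenum. The ileum was higher in 11 of 12 mice (log2 1.02, SE 0.196; edgeR adjusted p = 0.0336), and the jejunum value was 5.50 ± 1.44 CPM (log2 0.74 against duodenum, edgeR adjusted p = 0.871). The call was lost under DESeq2, which called 0, and without any 1 of 10 of the 12 mice. Tgm2, a transglutaminase gene, was next by p, with 9.70 ± 1.97 CPM in ileum and 6.10 ± 1.15 CPM in duodenum, higher in 12 of 12 mice (log2 0.65), but its adjusted p was 0.457. Jejunum against duodenum gave 0 calls at gene ends and in all (0%) with edgeR, and 0 at gene ends with DESeq2. At an unadjusted p under 0.05 there were 398 regions for the ileum and 456 for the jejunum.

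**Figure D5:**
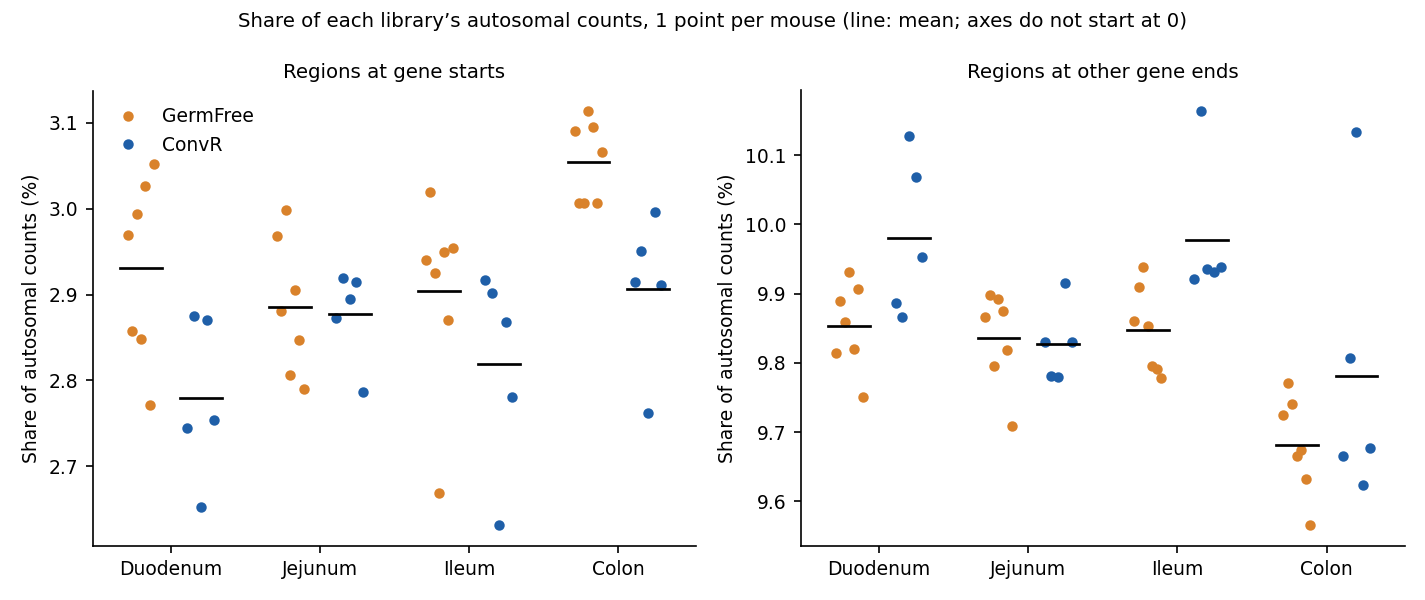
Share of each library's autosomal counts (vertical axes, in %, not starting at 0) at regions of gene starts (left) and other gene ends (right) by section, with 1 point per mouse, GermFree left of ConvR, and lines at the means. In the colon the 7 GermFree mice (3.01 to 3.11%) lie above all 5 ConvR mice at starts.

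Summed over all of them, regions at gene ends took 12.5 to 13.1% of autosomal counts in every library. Of 24 comparisons of such shares, 4 passed at an adjusted p under 0.05, by exact permutation tests, two-sided. At starts the colon share was 2.99 ± 0.0990% and the small intestinal share 2.87 ± 0.0826% (SD, n = 12 mice), higher in colon in 12 of 12 mice by 0.120 percentage points (exact p = 0.000488, the smallest that 4096 sign flips can give, adjusted p = 0.0117). The 108 start regions called in colon against small intestine gave a difference of 0.129, and the other 1802 gave -0.00838. The 108 were chosen by the same contrast on the same counts, so their larger part was built in by the choice. At the other ends colon gave 9.72 ± 0.145% and small intestine 9.88 ± 0.0610%, higher in 1 of 12 mice, a difference of -0.157 (exact p = 0.00391, adjusted p = 0.0312). This passed only without ConvR mouse 3 or GermFree mouse 3 among the 12 fits that left out a mouse.

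Between GermFree and ConvR mice the share at starts differed in the colon, with 3.05 ± 0.0473% over 7 GermFree mice and 2.91 ± 0.0876% over 5 ConvR mice (SD), a difference of 0.148 percentage points. All 7 GermFree mice lay above all 5 ConvR mice (exact p = 0.00126, the smallest that relabelling 7 and 5 mice can give, adjusted p = 0.0152). By width, starts of 2 kb or wider gave 0.171 and narrower ones -0.0230. The 26 start regions called in any comparison of GermFree and ConvR mice gave 0.101, and the other 1884 gave 0.0473. This split too rests on calls from the same counts, so a large part for the 26 was built in. In the duodenum the difference was 0.152 and did not pass (exact p = 0.0366, adjusted p = 0.0976). At other ends the ileum gave 9.85 ± 0.0620% in GermFree and 9.98 ± 0.104% in ConvR mice, a difference of -0.131 (exact p = 0.00758, adjusted p = 0.0455), which did not pass in 11 of the 12 fits that left out a mouse. When a region counted only if its midpoint lay in the window, the difference at starts was -0.00961 between GermFree and ConvR colon and 0.00209 between colon and small intestine, neither past the test.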

How the data were processed

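MBD capture sequencing was analysed in 48 libraries, 4 intestinal sections of 12 mice, with group, section and mouse taken from the labels. Per the labels' protocols, sonicated DNA was captured with the MethylMiner kit and sequenced as single-end reads. Per the submitters' processing notes, Trim Galore 0.3.7, cutadapt 1.4.2, MACS2, featureCounts and build mm10 were used. For the aligner and for duplicate and multi-mapping reads, the sources used here give nothing. The authors deposited raw read counts per region and library, and a list of the regions with a score each. The score in the deposited list is the authors' own value on a scale not given and served here only as a filter. All region names carry a GermFree label, so regions captured mainly in ConvR mice may be under-represented. No input or unbound libraries were used here, so capture, CpG density and copy number act together on each count.

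Gene ends, symbols and promoter windows came from RefSeq tables on GRCm38.p6, which is mm10, and strand was at hand for 16457 of 20665 autosomal protein-coding genes. Counts were scaled by the trimmed mean of M values (TMM) and tested with edgeR 4.0.16 (filterByExpr, quasi-likelihood F test, trended dispersion) under R 4.3.3, first with the sections of a mouse summed, then per section. Sections were compared in one fit over the 8 groups. P-values were adjusted by Benjamini-Hochberg over all regions tested, sex chromosomes included, at 0.05. The steps were tested on simulated data with a coefficient of variation of 0.1 and no mouse effect, with changes only at regions above a minimum mean count. Of changes of 0.5 on the log2 scale, 50% were recovered with sections summed, 12.1% in the colon and 61% for colon against small intestine. Of changes of 1, it was 98%, 77.3% and 99%. Differences near 0.5 could thus be missed often. The mouse was the replicate between GermFree and ConvR mice and in the tests of shares. In the fit of sections all 48 libraries entered without a term for the mouse, so its p-values measure the spread between libraries. The mice of a group may share a litter or cage, which the labels used here do not give, so the other p-values measure the spread between these mice. Share of counts was the percentage of a library's autosomal counts. Shares were compared by exact permutation over 7 against 5 mice or sign flips over 12 mice, with 24 tests adjusted together, using Python 3.11.15 and scipy 1.17.1. Same-numbered GermFree and ConvR mice varied little together (r of -0.133 to 0.0659 in the summed libraries, and 0.125 for number 3 in the colon). The main fits did not pair them. Same-numbered mice of both groups shared a code in the sample titles for numbers 1 to 4. GermFree mouse 6 shared a code with ConvR mouse 5, and GermFree mice 5 and 7 shared another. What the code stands for is not given, and shares called with it as a block are given below. Sections of 1 mouse pair by animal; their deviations from the group means correlated with a median r of 0.0287 over 72 pairs (-0.0555 to 0.239), and the unblocked fit was kept as the main one.

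Regions named in the text were, per comparison, called regions at gene ends whose mean reached 1 CPM, by size of change, at most 10 per direction and 1 per gene, and up to 4 per gene list by p. Where fewer than 5 were called, the 5 with the smallest p were taken. For germline, housekeeping and imprinted genes those highest per kb were named, and exceptions are said to be chosen after their values were seen. The regions, the 18 gene lists and the comparisons were chosen with earlier results of these data known. Alternatives were DESeq2 1.42.0, its size factors in edgeR, library totals without TMM, no filter on low counts, autosomal regions only, regions at or above the median score, blocks by replicate number, mouse or title code, windows of 500 bp and 2 kb, the midpoint rule, and leaving out each mouse or ConvR mice 1 and 3.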

Additional observations from a re-analysis of the deposited data

Results flagged for a closer look

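Single mice that stood far from the rest of their group were sought in 148 groups of values, and 9 were found, where chance gives about 1 in 20 groups. Of these, 2 were among 30 groups of shares and 7 among 118 groups of CPM at named regions. In the ileum, ConvR mouse 2 had 10.2% of autosomal counts at gene ends other than starts, against 9.94% in the next mouse, and GermFree mouse 4 had 2.67% at starts, against 2.87% in the next.

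GermFree mouse 4 was the lowest of its group in the ileum at 3 further regions: the region of the Ly49 receptor gene Klra9 gave 203 CPM there, against 323 in the next mouse, the 3′ end of Klra4 60.3 against 90.7, and the start of the calcium channel gene Cacna1b 194 against 264. Klra9 in the jejunum was low in ConvR mouse 5, at 142 CPM against 194 in the next. GermFree mouse 2 was high at Rps29, with 25.1 CPM in the jejunum against 13.3 in the next mouse and 24.8 CPM in the ileum against 11.5. In the colon Zbtb39 gave 48.3 CPM in ConvR mouse 3 and 33.5 in the next. No cause was tested for any of these values.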

How the results depend on the processing

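The share of regions at gene ends that was called moved by over 1.5 times as follows. With the midpoint rule it was 0.222% for GermFree against ConvR mice with sections summed, 0.0897% in the duodenum, 0.0844% in the jejunum, 0.107% in the ileum, 0.156% in the colon, 2.07% for colon against small intestine and 0.0246% for ileum against duodenum. With DESeq2, run without the filter on low counts, it was 0.276% in the duodenum, 0.163% in the jejunum, 0.214% in the ileum, 0.327% in the colon and 0.0% for ileum against duodenum. Without ConvR mice 1 and 3 it was 0.291% in the duodenum, 0.243% in the ileum, 0.387% in the colon and 0.0% for ileum against duodenum. With the replicate block, by number between the groups and by mouse between sections, it was 0.214% in the ileum, 5.39% for colon against small intestine and 0.0126% for the variation of the GermFree difference by section. With a block by the title code it was 0.281% in the duodenum, 0.214% in the ileum and 0.399% in the colon. At scores of the median or above it was 5.51% for colon against small intestine and 0.0% for ileum against duodenum. Leaving out 1 mouse gave 0.235% to 0.543% in the ileum, 1.13% to 6.13% for colon against small intestine and 0.0% to 0.0126% for ileum against duodenum. The other alternatives kept these shares within 1.5 times, 80 of 104 values with all mice or without ConvR mice 1 and 3 and 92 of 108 without 1 mouse. The cause was not tested in any of these cases.

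Shares of counts, in percentage points, changed sign or side of the threshold as follows. For all gene ends, colon minus small intestine was 0.00549 with the 500 bp window, -0.0704 by midpoint (now past the threshold) and 0.0996 at the higher scores. Ileum minus duodenum was 0.0207 with the 2 kb window. GermFree minus ConvR was -0.0283 (mean of sections), -0.0213 (duodenum) and -0.00524 (jejunum) with the 2 kb window; -0.0533, -0.0836, -0.00384 and, in the colon, -0.0751 by midpoint; 0.0193 in the ileum at the higher scores; and -0.0086 (mean) and -0.0113 (duodenum) without ConvR mice 1 and 3. At starts, midpoint gave 0.00209 for colon minus small intestine, -0.00299 for jejunum minus duodenum, and for GermFree minus ConvR -0.00558 (mean), -0.00148 (duodenum), -0.00379 (jejunum), -0.00745 (ileum) and -0.00961 (colon). The colon difference at starts no longer passed at 0.128 with the 500 bp window, 0.102 without ConvR mice 1 and 3, and 0.155 with the replicate block, where 5 pairs cannot go below a p of 0.0625. Ileum minus duodenum at starts was -0.00799 at the higher scores and -0.014 without ConvR mice 1 and 3, and jejunum minus duodenum -0.0203 without them. At other ends the ileum difference between GermFree and ConvR mice no longer passed at -0.0971 (500 bp), -0.161 (2 kb), -0.043 (midpoint), -0.132 (higher scores), -0.164 (without ConvR mice 1 and 3) and -0.106 (replicate block). The jejunum difference was -0.011 (2 kb), -4.59e-05 (midpoint) and -0.00594 (without those mice), and the duodenum difference passed at -0.0822 by midpoint. Colon minus small intestine no longer passed at -0.115 and jejunum minus duodenum passed at -0.0758 at the higher scores. Ileum minus duodenum was 0.00918 (2 kb) and 0.0103 (without those mice).

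Without 1 mouse, shares at all gene ends ran from -0.00947 to 0.0302 for the GermFree difference over the mean of sections, -0.00771 to 0.0691 in the duodenum, -0.00564 to 0.0537 in the jejunum, -0.104 to 0.0202 in the ileum, and -0.0336 to 0.0193 for ileum minus duodenum. At starts they ran from -0.0151 to 0.0235 for the jejunum GermFree difference, -0.0146 to 0.0174 for ileum minus duodenum and -0.00683 to 0.039 for jejunum minus duodenum. At other ends they ran from -0.00302 to 0.0311 for the jejunum GermFree difference, -0.146 to -0.0845 for the ileum one, -0.188 to -0.139 for colon minus small intestine and -0.0322 to 0.0124 for ileum minus duodenum. Of the log2 differences at named regions 1 reversed, Rps29 in the jejunum at 0.07 without ConvR mice 1 and 3. Depth limits narrow regions most: the median region at a gene end held 11 to 32 counts per library.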
